A study of Mus musculus with 6 samples.

Results

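The 49 genes described here encode the machinery of DNA replication and S phase, from the loading of the helicase at origins to the joining of finished fragments and the packing of new DNA. They were listed by name for the complex or step they serve, out of the 51733 gene symbols counted in each library. By role they fall into 11 groups. There were 6 subunits of the MCM2-7 helicase, 6 genes of origin recognition and licensing, 6 of helicase activation, 7 of the sliding clamp and its loaders, 3 subunits of RPA, 4 of polymerase alpha-primase and 5 of polymerases delta and epsilon. The rest comprised 2 genes of flap removal and ligation, 3 of nucleotide supply, 3 of chromatin assembly and histone mRNA, and 4 of fork protection and uracil repair.

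Bulk RNA-seq had been made from Sox2-positive neural progenitor cells (NPCs) that were sorted from the neural tubes of E13.5 mouse embryos of strain C57BL/6. The 3 control libraries carry the genotype label wildtype and came from siblings, and the 3 Ybx1-KO libraries carry the label YBX1KO, for embryos null for Ybx1 in all of their cells. Ybx1 encodes a Y-box protein of the cold-shock domain family that binds RNA and DNA. Embryos of both groups expressed the Sox2-eGFP reporter, a knock-in at Sox2 whose fluorescence defined the sorted cells, so the gate followed Sox2 expression and not the cell cycle. Libraries are named control 1 to 3 and Ybx1-KO 1 to 3 in the order of deposit, and these numbers pair no samples. Sample names of controls 1 and 2 share a first number, as do those of Ybx1-KO 1 and 2, but no first number occurs in both groups. What this number marks is not stated, so its part cannot be told apart from that of genotype. Nothing states that the names mark separate litters or embryos, so the p-values measure the spread between these samples. The comparison asked which replication genes differed between Ybx1-KO and control NPCs.

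Replication starts at origins, where the origin recognition complex with Cdc6 and Cdt1 loads the ring-shaped MCM2-7 helicase in G1 phase, a step called licensing that geminin blocks once S phase has begun. Cdc45 and the GINS complex then switch the helicase on, and DNA polymerases copy the opened strands while the clamp PCNA holds them in place. Many of these genes are transcribed at the G1/S transition under E2F factors, and dividing NPCs of the embryonic neural tube express them at high levels.

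Depth differed between the groups, with between 20841990 and 23883542 counts on genes in the control libraries and 8483075, 13321952 and 4743279 counts in Ybx1-KO 1, 2 and 3. A gene with 3 counts stood at 0.126 CPM (counts scaled to the total of the library) in the deepest library and 0.632 CPM in the shallowest, for counting error only. Ybx1-KO 3 stood apart, with 7.22% of its read pairs on genes against 18.01% to 24.7% in the other 5 libraries, and 39553 symbols with counts against at most 30482. Its counts on 1729 olfactory, vomeronasal and taste receptor genes summed to 4554 CPM, against between 22.5 and 96.0 CPM elsewhere. A background of that density per kb would make up a median of 7.57% of the counts on a replication gene in Ybx1-KO 3, with a highest value of 36.6% for Gins3, and a median of at most 0.312% in any other library. Ybx1 stood at 235, 523 and 301 CPM in controls 1, 2 and 3 and at 124, 54.5 and 9.51 CPM in Ybx1-KO 1, 2 and 3 (TMM-normalised, that is, scaled on the premise that most genes do not differ). The groups did not overlap, but the difference did not pass the test (log2 fold change -2.49 ± 0.68 SE, adjusted p = 0.301 by edgeR), and Ybx1-KO 1 kept the most. Counts per gene do not show whether those reads lie in the deleted part of Ybx1. The TMM factors, by which each library was divided, were 0.734 for Ybx1-KO 2, 1.51 for Ybx1-KO 3 and between 0.909 and 1.06 for the others. Gene levels and their sums below carry these factors unless total-count scaling is named.

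The mean level in Ybx1-KO NPCs was 2.59 times the control mean for Cdc6, which loads the helicase, 2.03, 2.05 and 1.91 times for the helicase subunits Mcm2, Mcm3 and Mcm5, and 2.19 times for Fen1, which trims Okazaki fragments. It was 1.11 times for the clamp Pcna and 1.01 times for Rpa3, and 0.595 times for Rfc5, a subunit of the clamp loader. None of the 49 replication genes passed the test at an adjusted p of 0.05 by edgeR's quasi-likelihood test, which called 0% of all 21329 genes tested. The smallest adjusted p among them was 0.403, for Cdc6. All 49 had a mean above 1 FPKM (counts scaled for exon length and depth) in both groups, so none entered the test through a single group. The log2 fold change, Ybx1-KO against control, was above 0 for 38 of the 49 replication genes (77.6%, against 61.3% of all genes tested) and below 0 for 11. Its median was 0.32, with a range from -0.75 for Rfc5 to 1.37 for Cdc6. The median over all tested genes was 0.31, close to that of the replication genes with this filter, but the distance changed with the filter. Among genes above 1 CPM in 3 libraries the medians were 0.42 for the replication genes and 0.08 for all genes. Without a filter on low counts they were 0.19 and 0.70. With scaling by total count the medians were 0.54 for the replication genes and 0.51 for all genes, and 46 of the 49 were then above 0 (93.9%, against 68.5% of all genes tested). In bulk RNA, a difference in the share of cells in S phase and one in RNA per cell cannot be told apart.

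At an unadjusted p below 0.05, 10 of the 49 were higher in Ybx1-KO (6.96% of all genes tested) and 0 were lower (4.26% of all genes tested). These 10 were Cdc6, Fen1, Mcm3, Mcm5, Mcm2, Rfc2, Chaf1a, Cdc45, Cdt1 and Gmnn, in order of p. In 12 of the 49 the lowest Ybx1-KO library lay above the highest control (4.99% of all genes tested), and in Rfc5 alone the highest Ybx1-KO library lay below the lowest control (8.17% of all genes tested). Scaled by total count, the same counts were 13 above (5.87% of all genes) and 1 below (5.26% of all genes). An exact permutation test of 3 against 3 libraries cannot give a two-sided p under 0.1, so no gene could pass it alone. With limma-voom 0 of the 49 passed and 7 had an unadjusted p below 0.05 (7.76% of all genes). Over all 21329 genes limma-voom also called 0. The paper, with voom at an adjusted p of 0.05 and a 1.5-fold change, reported genes called in both directions. Among functions enriched in its upregulated genes it named cell proliferation. Why the calls differ was not tested. With DESeq2 1 passed, Mcm5 (adjusted p = 0.04525), among 214 of all 21329 genes, and 10 had an unadjusted p below 0.05 (13.2% of all genes).

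**Figure D1:**
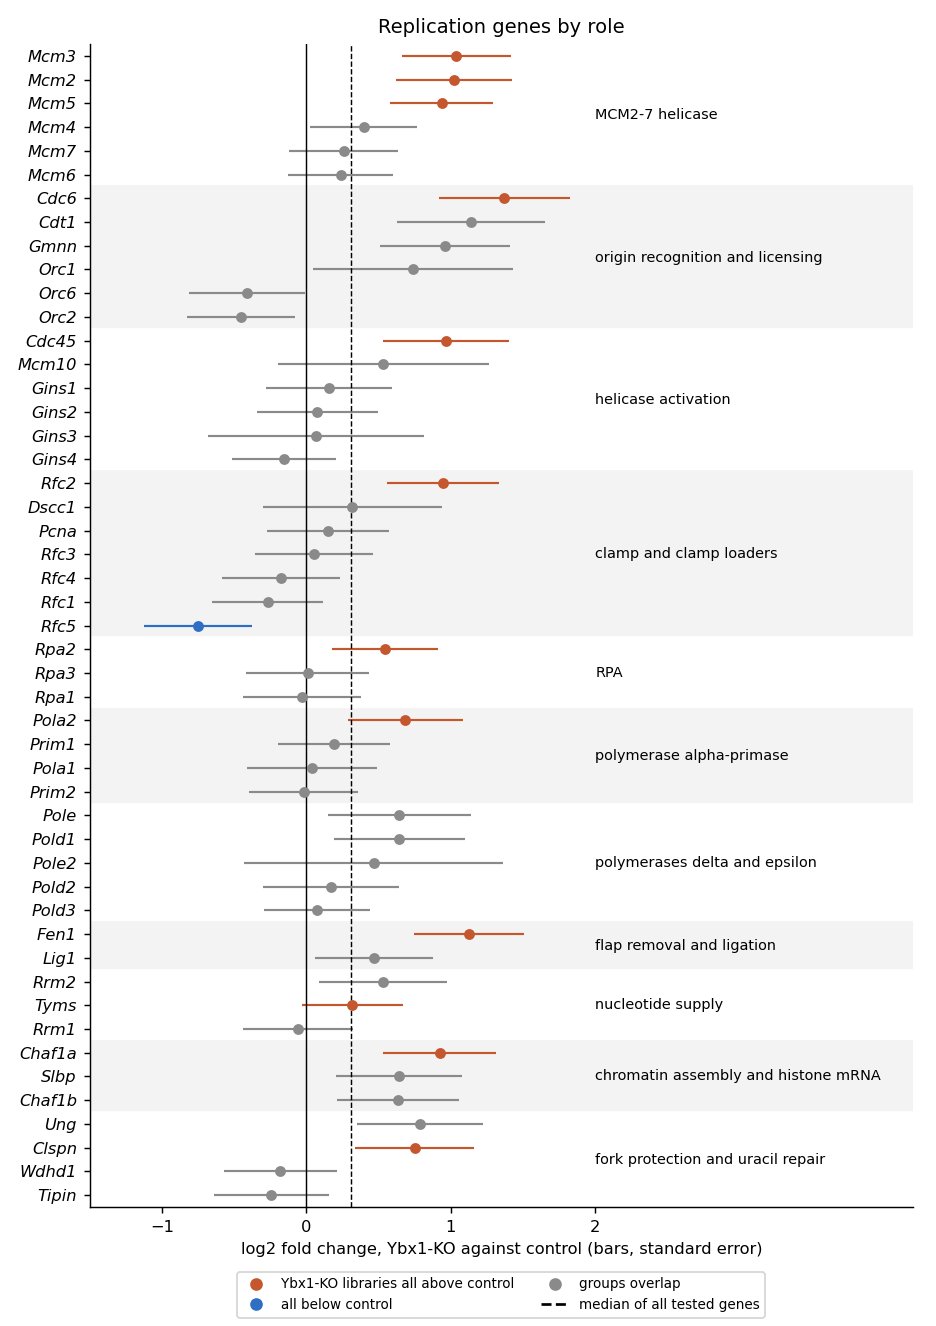
Log2 fold change of each of the 49 replication genes in Ybx1-KO against control NPCs on the x axis, with its standard error as a bar, grouped by role. The 12 genes whose Ybx1-KO libraries all lay above the controls are in orange, Rfc5, where all lay below, is in blue, and the dashed line marks the median of all tested genes, 0.31.

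Library by library, the median replication gene stood 0.16, 0.48 and 0.36 on the log2 scale above its control mean in Ybx1-KO 1, 2 and 3, where the median over all tested genes was -0.09, -0.04 and 0.19. The share of replication genes above all 3 controls was 42.9% in Ybx1-KO 1, 57.1% in Ybx1-KO 2 and 55.1% in Ybx1-KO 3, against 25.9%, 24.8% and 44.1% of all tested genes. Of the 49 genes, 17 had their highest TMM-scaled level in Ybx1-KO 2 and 16 had their lowest in control 1. The order of the libraries depends on the TMM factors, 0.734 for Ybx1-KO 2 and 1.51 for Ybx1-KO 3. By total count, Mcm2 was higher in Ybx1-KO 3 (563 of 4743279 counts) than in Ybx1-KO 2 (1178 of 13321952), the reverse of its TMM order. Rrm2 remained higher in Ybx1-KO 2 (1478 counts, against 447 in Ybx1-KO 3). The remaining genes were not ranked again on that scale. When Ybx1-KO 3 was left out, 31 of the 49 were above 0 (43.2% of all genes) with a median of 0.27, while the median of all genes was -0.16. That value kept the genes that had passed the filter with Ybx1-KO 3, and with the filter applied again 32 were above 0 (50.7% of all genes) with a median of 0.31, against 0.013 for all genes. In either fit 8 replication genes had an unadjusted p below 0.05 (12.3% and 13.1% of all genes), and without regard to any test 15 had both remaining Ybx1-KO libraries above all controls (10.3% of all genes) and 2 had them below (14.6%). Leaving out control 1 took the 10 genes with an unadjusted p below 0.05 to 2 (4.88% of all genes, against 11.2% with all libraries), and leaving out control 3 took them to 5 (6.25% of all genes). Control 1 also held the most RNA of mesenchyme and meninges markers, whose summed level per kb was 117 CPM there and between 10.3 and 31.4 CPM in the other 5 libraries. The part of that RNA in the result was not tested.

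The MCM2-7 helicase, the ring that unwinds DNA ahead of the fork, had all 6 members above 0, with a median log2 fold change of 0.67. Mcm2 (chr6:88883474-88898780, GRCm38, minus strand) stood at 34.6, 71.1 and 46.02 CPM in controls 1, 2 and 3 and at 109, 120.4 and 78.8 CPM in Ybx1-KO 1, 2 and 3. Even the lowest Ybx1-KO library, number 3, lay above control 2, the highest control. The means were 50.6 ± 18.7 and 103 ± 21.5 CPM (SD, n = 3 in each group, as for all means given here), and the log2 fold change was 1.02 ± 0.40 (SE, adjusted p = 0.436 by edgeR). Mcm3 (chr1:20802968-20820312, minus strand) stood at 25.97, 47.8 and 32.1 CPM in the controls and 77.02, 73.8 and 66.6 CPM in Ybx1-KO. Its Ybx1-KO libraries lay close together at 72.5 ± 5.34 CPM, and its log2 fold change was 1.04 ± 0.38 (adjusted p = 0.430). Mcm5 (chr8:75109569-75128439, plus strand) gave 24.8, 31.9 and 24.8 CPM in the controls and 56.1, 53.4 and 46.6 CPM in Ybx1-KO. The groups were separated by more than the range within either of them, and the log2 fold change was 0.94 ± 0.36 (adjusted p = 0.432).

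The other 3 subunits overlapped between the groups. Mcm4 was at 44.8, 70.8 and 43.1 CPM in the controls and 68.99, 73.5 and 66.5 CPM in Ybx1-KO, and control 2 lay among the Ybx1-KO libraries (log2 fold change 0.40 ± 0.37, adjusted p = 0.617 by edgeR). Mcm6 was at 62.3, 65.6 and 58.5 and 67.5, 62.2 and 90.2 CPM, with Ybx1-KO 2 among the controls and Ybx1-KO 3 the highest (log2 fold change 0.24 ± 0.36, adjusted p = 0.765). Mcm7, the most abundant subunit per kb, was at 70.1, 91.4 and 86.4 and 79.9, 124 and 92.9 CPM, with Ybx1-KO 2 the highest (log2 fold change 0.26 ± 0.38, adjusted p = 0.756). Of the Mcm7 exon bases, 3.89% are shared with the microRNA genes Mir25 and Mir93 on the same strand and 8.70% with genes on the other strand.

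Since the 6 subunits form one ring, their shares of the summed level per kb were set side by side within each library, a measure that does not depend on scaling between libraries. Mcm7 held the highest share in all 3 controls, at 26.5%, 24.2% and 29.8%, and the lowest was Mcm2 in control 1 and Mcm5 in controls 2 and 3. The ratio of the highest to the lowest subunit was 3.18, 2.58 and 3.14 in the controls and 1.46, 2.10 and 1.85 in Ybx1-KO 1, 2 and 3. Every Ybx1-KO library was thus closer to equal shares than every control. Mcm3 held 11.6%, 14.9% and 13.1% of the sum in the controls and 20.1%, 17.6% and 17.8% in Ybx1-KO. Mcm5 held 10.4%, 9.35% and 9.49% in the controls and 13.8%, 11.9% and 11.7% in Ybx1-KO. Shares of Mcm2 overlapped only through Ybx1-KO 3, whose 11.4% lay below the 11.97% of control 2. Lengths are those of all annotated exons together, so a share rests on which transcripts are used, and no test was made of these shares. In all, the sum over MCM2-7 per kb was 59.8, 85.4 and 65.5 CPM in the controls and 102, 112 and 99.6 CPM in Ybx1-KO, with no overlap.

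**Figure D2:**
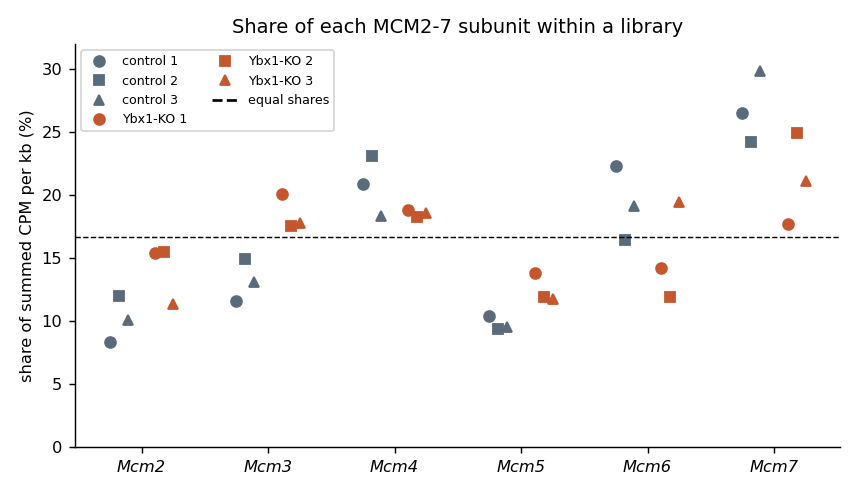
Share of each MCM2-7 subunit in the summed CPM per kb of the 6 subunits (y axis, percent) in each of the 3 control and 3 Ybx1-KO libraries. Mcm3 and Mcm5 lie higher in all Ybx1-KO libraries, the dashed line marks equal shares, and the spread between the subunits is wider in the controls (highest to lowest 2.58 to 3.18) than in Ybx1-KO (1.46 to 2.10).

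For origin recognition and licensing the median log2 fold change was 0.85, and the sum per kb was 33.3, 35.5 and 37.8 CPM in the controls and 51.5, 42.2 and 41.6 CPM in Ybx1-KO, with no overlap on the TMM scale. Cdc6, the ATPase that brings MCM2-7 to the origin recognition complex (chr11:98907801-98923940, plus strand), stood at 6.09, 14.3 and 7.55 CPM in the controls and 25.2, 18.3 and 28.8 CPM in Ybx1-KO. All Ybx1-KO libraries lay above the controls, among which control 2 was the highest. The means were 9.31 ± 4.37 and 24.1 ± 5.35 CPM, and the log2 fold change of 1.37 ± 0.45 was the highest of the 49 (adjusted p = 0.403 by edgeR). Cdt1, the second loading factor (chr8:122568015-122573554, plus strand), was at 5.95, 11.8 and 11.9 CPM in the controls and at 36.95, 18.8 and 9.37 CPM in Ybx1-KO. Ybx1-KO 1 was the highest and Ybx1-KO 3 lay among the controls (log2 fold change 1.14 ± 0.51, adjusted p = 0.444, and 0.49 without Ybx1-KO 1). Gmnn, which encodes geminin, the inhibitor of Cdt1 (chr13:24751845-24761923, minus strand), was at 9.92, 11.5 and 12.9 and 33.5, 11.8 and 21.7 CPM. Here too Ybx1-KO 1 was the highest, and Ybx1-KO 2 lay among the controls (log2 fold change 0.96 ± 0.45, adjusted p = 0.444, and 0.54 without Ybx1-KO 1). The ratio of Cdt1 to Gmnn per kb was 0.280, 0.476 and 0.429 in the controls and 0.515, 0.746 and 0.202 in Ybx1-KO, so the balance of the loader and its inhibitor overlapped between the groups.

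Among the origin recognition complex subunits, which mark origins, Orc6 and Orc2 (-0.45 ± 0.37) had log2 fold changes below 0. Orc1 had one above 0 (0.74 ± 0.69), and all of these subunits overlapped between the groups. Orc6, the most abundant of them per kb, was at 33.5, 27.1 and 37.7 CPM in the controls and 16.7, 37.3 and 19.7 CPM in Ybx1-KO. Ybx1-KO 1 and 3 lay below the controls and Ybx1-KO 2 among them (log2 fold change -0.41 ± 0.40, adjusted p = 0.633 by edgeR). Orc2 was at 33.8, 32.8 and 26.9 and 17.9, 28.6 and 21.8 CPM, overlapping through Ybx1-KO 2, and 29.8% of its exon bases lie opposite Nif3l1. Orc1, the subunit whose level follows the cell cycle in many cells, was at 4.16, 5.94 and 5.30 CPM in the controls and 2.23, 7.46 and 16.1 CPM in Ybx1-KO. Its Ybx1-KO libraries thus held both its lowest and its highest value, from 20 counts in Ybx1-KO 1 to 115 in Ybx1-KO 3. The ratio of Cdc6 to Orc2 per kb, a pair picked after its values were seen, was 0.133, 0.322 and 0.207 in the controls and 1.04, 0.471 and 0.974 in Ybx1-KO.

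Promoter windows were read for the members from RefSeq (GRCm38.p6), from 250 bases before to 50 after the start of transcription, and 39 of the 49 genes matched 45 windows. They were searched on both strands for the E2F-type words TTTGGCGC, TTTCCCGC, TTTCGCGC and TTTGCCGC, and for CCAAT, whose reverse complement ATTGG is the core of the Y-box that gave Y-box proteins their name. An E2F-type word occurred in 15 of the 45 windows (33.3%), against 2.26% of all 32851 windows. CCAAT occurred in 27 of the 45 (60.0%), against 37.4% of all windows. The cell cycle homology word TTTGAA or TTCGAA occurred in 7 (15.6%), against 19.2% of all windows. Below are the windows of 4 of the 10 genes with the lowest p, shown because they carry the E2F-type words of that set, with these words and CCAAT on either strand in capitals. They are chr1:20820263-20820562 (minus strand), chr8:75109259-75109558 (plus), chr11:98907901-98908200 (plus) and chr8:122567765-122568064 (plus), written 5′ to 3′ along the gene.
Mcm3: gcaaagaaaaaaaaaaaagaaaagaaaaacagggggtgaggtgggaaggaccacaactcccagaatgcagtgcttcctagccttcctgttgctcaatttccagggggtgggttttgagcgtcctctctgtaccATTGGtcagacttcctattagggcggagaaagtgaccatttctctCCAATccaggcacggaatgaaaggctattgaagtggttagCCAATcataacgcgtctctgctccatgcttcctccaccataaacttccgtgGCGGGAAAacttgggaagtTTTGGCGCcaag
Mcm5: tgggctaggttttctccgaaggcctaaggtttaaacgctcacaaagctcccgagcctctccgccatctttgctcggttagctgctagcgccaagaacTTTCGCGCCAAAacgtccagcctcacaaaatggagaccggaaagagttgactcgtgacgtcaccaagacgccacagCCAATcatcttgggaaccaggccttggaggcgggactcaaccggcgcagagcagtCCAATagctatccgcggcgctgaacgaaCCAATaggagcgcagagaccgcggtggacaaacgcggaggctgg
Cdc6: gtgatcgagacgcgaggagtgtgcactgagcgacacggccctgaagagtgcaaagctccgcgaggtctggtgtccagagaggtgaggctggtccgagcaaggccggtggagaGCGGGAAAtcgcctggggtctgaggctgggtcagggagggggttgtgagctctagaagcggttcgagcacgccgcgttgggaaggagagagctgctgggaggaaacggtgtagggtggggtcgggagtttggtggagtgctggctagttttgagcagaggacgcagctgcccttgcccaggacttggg
Cdt1: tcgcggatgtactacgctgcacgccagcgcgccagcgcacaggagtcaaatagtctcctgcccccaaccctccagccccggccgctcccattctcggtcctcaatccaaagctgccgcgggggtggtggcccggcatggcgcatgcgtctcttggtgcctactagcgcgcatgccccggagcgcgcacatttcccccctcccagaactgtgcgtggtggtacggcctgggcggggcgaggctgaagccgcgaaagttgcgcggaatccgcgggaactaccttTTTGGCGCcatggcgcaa

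In Mcm3 the E2F-type words began 19 and 38 bases after the start and 3 CCAAT words lay before it. In Mcm5 a pair of overlapping E2F-type words began 153 and 149 bases before the start, with 3 CCAAT words nearer to it. Cdc6 had 1 such word 138 bases before the start and Cdt1 had 1 at 32 bases after it, and neither held CCAAT in the window. Fen1, Mcm2, Cdc45 and Chaf1a had no E2F-type word of these letters, and no window was matched for Rfc2 or Gmnn. The 15 genes with an E2F-type word had a median log2 fold change of 0.47, all 15 above 0 and 4 with an unadjusted p below 0.05, and the 24 without one had a median of 0.26, 16 above 0 and 4 with an unadjusted p below 0.05. Over all genes tested, 61.3% were above 0. An unadjusted p below 0.05 was reached by 11.2% of all genes tested in either direction, and by 6.96% as higher in Ybx1-KO. The 25 genes with CCAAT had a median of 0.24, and the 14 without it a median of 0.55. A match of letters describes the window and shows no binding.

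For helicase activation the median was 0.12, and the sums per kb overlapped (57.1, 60.9 and 75.2 CPM in the controls, 69.5, 73.1 and 60.5 CPM in Ybx1-KO). Cdc45, which joins the MCM ring to form the active helicase (chr16:18780447-18811987, minus strand), was at 12.9, 8.89 and 10.6 CPM in the controls and 13.1, 25.7 and 24.5 CPM in Ybx1-KO. Ybx1-KO 1 lay just above the highest control and the other two far above it (log2 fold change 0.97 ± 0.44, adjusted p = 0.444 by edgeR). Its partners in the active helicase, the GINS subunits, did not follow it. Gins2 was at 70.8, 106 and 116 CPM in the controls and 118, 135 and 57.2 CPM in Ybx1-KO, and Ybx1-KO 3 was the lowest of all 6 (log2 fold change 0.077 ± 0.42). A caution applies to it, since 67.3% of its exon bases lie opposite Gse1. Gins4 was at 30.3, 29.99 and 42.3 and 33.5, 28.1 and 30.4 CPM (log2 fold change -0.16 ± 0.36). Gins1 ranged from 9.58 to 19.4 CPM over the 6 libraries and Gins3 from 3.02 to 5.72 CPM, both with overlap. Mcm10, which acts at the start of unwinding, was at 6.71, 14.5 and 5.00 CPM in the controls and 1.12, 15.5 and 21.4 CPM in Ybx1-KO, where Ybx1-KO 1 rested on 10 counts.

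The sliding clamp and its loaders had a median log2 fold change of 0.052, which turned negative with limma-voom (-0.025), without a filter on low counts (-0.096), without control 2 (-0.14), without Ybx1-KO 3 (-0.095) and, with the filter applied again, without Ybx1-KO 1 (-0.030). Pcna, the clamp that ties polymerases to DNA, was the most abundant of the 49 genes per kb. It stood at 132, 61.97 and 144 CPM in the controls and 118, 109 and 148 CPM in Ybx1-KO, with control 2 the lowest of all (log2 fold change 0.15 ± 0.42, adjusted p = 0.882 by edgeR). In the loader, the RFC complex, Rfc2 (chr5:134581366-134601805, plus strand) was at 26.2, 22.2 and 30.9 CPM in the controls and 74.2, 39.7 and 38.9 CPM in Ybx1-KO. All its Ybx1-KO libraries lay above the controls, Ybx1-KO 1 by the most (log2 fold change 0.95 ± 0.39, adjusted p = 0.444, and 0.55 without Ybx1-KO 1), and 15.1% of its exon bases lie opposite Lat2. Rfc5 (chr5:117378103-117389047, minus strand) was at 35.8, 46.6 and 57.8 CPM in the controls and 27.01, 33.9 and 22.4 CPM in Ybx1-KO. It was the only member of the 49 with every Ybx1-KO library below every control (log2 fold change -0.75 ± 0.37, adjusted p = 0.450), and 10.7% of its exon bases lie opposite Wsb2. Within the loader the ratio of Rfc2 to Rfc5 per kb, chosen after its values were seen, was 0.542, 0.353 and 0.396 in the controls and 2.04, 0.866 and 1.29 in Ybx1-KO. Rfc1, Rfc3, Rfc4 and Dscc1, a subunit of the alternative loader that serves sister chromatid cohesion, overlapped between the groups, with fold changes of their means between 0.832 and 1.25.

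RPA, the complex that coats single-stranded DNA, had a median log2 fold change of 0.0095 over its 3 subunits, and -0.10 without a filter on low counts. Rpa2 was at 23.0, 25.2 and 36.6 CPM in the controls and 40.6, 44.8 and 38.2 CPM in Ybx1-KO. The lowest Ybx1-KO library, number 3, lay just above control 3 (log2 fold change 0.54 ± 0.37, adjusted p = 0.502 by edgeR). Rpa3, the smallest subunit and the most abundant per kb, was at 24.2, 10.6 and 18.8 and 20.5, 16.1 and 17.4 CPM, and Rpa1 at 22.5, 25.8 and 23.7 and 12.6, 28.8 and 29.1 CPM. Both overlapped, and the log2 fold change of Rpa3 was 0.0095 ± 0.42.

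Polymerase alpha-primase, which lays the RNA-DNA primers, had a median of 0.12 (-0.02 without a filter on low counts). The sum per kb was 14.7, 16.9 and 18.2 CPM in the controls and 19.4, 18.9 and 19.4 CPM in Ybx1-KO, apart on the TMM scale by less than the range of the controls. Pola2, its regulatory subunit, was at 14.1, 27.7 and 22.96 CPM in the controls and 29.02, 45.9 and 29.2 CPM in Ybx1-KO. Ybx1-KO 1 and 3 lay close above control 2 (log2 fold change 0.68 ± 0.40, adjusted p = 0.462 by edgeR). Prim1, the catalytic primase subunit, was at 23.3, 23.5 and 35.96 and 40.5, 21.98 and 32.2 CPM and overlapped (log2 fold change 0.19 ± 0.39). Pola1, the catalytic polymerase subunit, and Prim2 had fold changes of their means of 1.03 and 0.987, with overlap.

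Polymerases delta and epsilon, which copy the lagging and the leading strand, had a median of 0.47 with all 5 members above 0, yet none of the 5 was free of overlap. Pold2, the accessory subunit of delta with the highest level per kb, was at 15.2, 21.1 and 28.9 CPM in the controls and 15.6, 44.05 and 13.6 CPM in Ybx1-KO. Ybx1-KO 2 was the highest of all and Ybx1-KO 3 the lowest (log2 fold change 0.17 ± 0.47, adjusted p = 0.880 by edgeR), and without Ybx1-KO 2 its log2 fold change was -0.57. The median of the 5 was 0.089 with limma-voom, 0.19 without a filter on low counts, 0.81 with total-count scaling, 0.85 without Ybx1-KO 1 and 0.23 without Ybx1-KO 2. Their summed level on the TMM scale was also highest in Ybx1-KO 2, at 20.3, 25.2 and 26.1 CPM per kb in the controls and 17.9, 41.7 and 25.4 CPM per kb in Ybx1-KO. Pold1 and Pole, the catalytic subunits, were highest in Ybx1-KO 2, and their means were 1.56 and 1.56 times the control mean. Pold3, another accessory subunit of delta, stood at 1.05 times. Pole2 was at 4.58, 3.82 and 5.30 CPM in the controls and 0.335, 5.11 and 13.6 CPM in Ybx1-KO, where the value of Ybx1-KO 1 rested on 3 counts, the fewest of any member in any library.

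Flap removal and ligation had a median of 0.80 over its pair of genes, and sums per kb of 14.2, 23.9 and 19.6 CPM in the controls and 33.4, 34.1 and 24.7 CPM in Ybx1-KO. Fen1, the nuclease that trims the flaps of Okazaki fragments (chr19:10199132-10204169, minus strand), was at 11.6, 12.2 and 14.01 CPM in the controls and 27.5, 25.1 and 30.1 CPM in Ybx1-KO. Both groups were tight and lay far apart, with means of 12.6 ± 1.24 and 27.6 ± 2.47 CPM (log2 fold change 1.13 ± 0.38, adjusted p = 0.406 by edgeR). Of its exon bases, 84.2% lie opposite Tmem258 or Gm10143, and without a stated strand setting it is not known how reads there were counted. Read pairs tallied as ambiguous, which were left out of the counts, ranged from 0.278% in Ybx1-KO 3 to 3.87% in Ybx1-KO 2. Lig1, the ligase that seals the fragments, was at 40.0, 80.6 and 58.8 CPM in the controls and 93.99, 101 and 52.6 CPM in Ybx1-KO. Ybx1-KO 1 and 2 lay above all controls and Ybx1-KO 3 below 2 of them (log2 fold change 0.47 ± 0.41, adjusted p = 0.593).

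In nucleotide supply (median 0.32), Tyms, the thymidylate synthase, was at 31.03, 33.2 and 33.2 CPM in the controls and 38.9, 42.4 and 40.1 CPM in Ybx1-KO. The groups did not overlap and each was narrow, but the difference was small (means 32.5 ± 1.26 and 40.5 ± 1.81 CPM, log2 fold change 0.32 ± 0.35, adjusted p = 0.675 by edgeR). Rrm2, the S phase subunit of ribonucleotide reductase, was at 47.03, 102 and 53.1 and 78.1, 151 and 62.5 CPM. It was highest in Ybx1-KO 2 and second highest in control 2 (log2 fold change 0.53 ± 0.44, adjusted p = 0.574). Rrm1, its partner, had means of 118 ± 24.04 and 114 ± 8.65 CPM.

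Chromatin assembly and histone mRNA had a median of 0.64, and sums per kb of 11.1, 9.96 and 10.9 CPM in the controls and 22.7, 13.9 and 14.6 CPM in Ybx1-KO, without overlap on the TMM scale. Chaf1a, the large subunit of the CAF-1 complex that places histones on new DNA (chr17:56040439-56072289, plus strand), was at 10.6, 16.3 and 14.3 CPM in the controls and 25.4, 29.9 and 22.9 CPM in Ybx1-KO. The lowest Ybx1-KO library, number 3, lay above the highest control (log2 fold change 0.92 ± 0.39, adjusted p = 0.444 by edgeR), and 52.5% of its exon bases lie opposite Ubxn6. Chaf1b, the second subunit, was at 12.7, 11.6 and 16.3 and 13.4, 23.6 and 26.02 CPM, and Ybx1-KO 1 lay among the controls. Slbp, which binds the stem-loop of histone mRNAs, was at 43.4, 34.2 and 35.3 CPM in the controls and 103, 33.5 and 39.3 CPM in Ybx1-KO. Ybx1-KO 1 alone was high, and the log2 fold change of 0.64 ± 0.44 became -0.06 without it.

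In fork protection and uracil repair (median 0.28), Clspn, which links stalled forks to the checkpoint kinase, was at 12.3, 22.5 and 10.6 CPM in the controls and 24.3, 28.7 and 23.2 CPM in Ybx1-KO. Ybx1-KO 3 lay just above control 2, and the other controls were lower (log2 fold change 0.75 ± 0.41, adjusted p = 0.451 by edgeR, and 1.16 without control 2). Tipin, part of the fork protection complex and the most abundant of the 4 per kb, was at 36.3, 18.8 and 25.5 and 22.7, 17.6 and 27.98 CPM with overlap (log2 fold change -0.24 ± 0.40, and 0.018 when scaled by total count). Ung, the uracil-DNA glycosylase, had means of 12.6 ± 4.82 and 21.8 ± 6.56 CPM, and Wdhd1, which couples the helicase to polymerase alpha, 28.1 ± 10.1 and 24.8 ± 2.21 CPM, both with overlap.

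**Figure D3:**
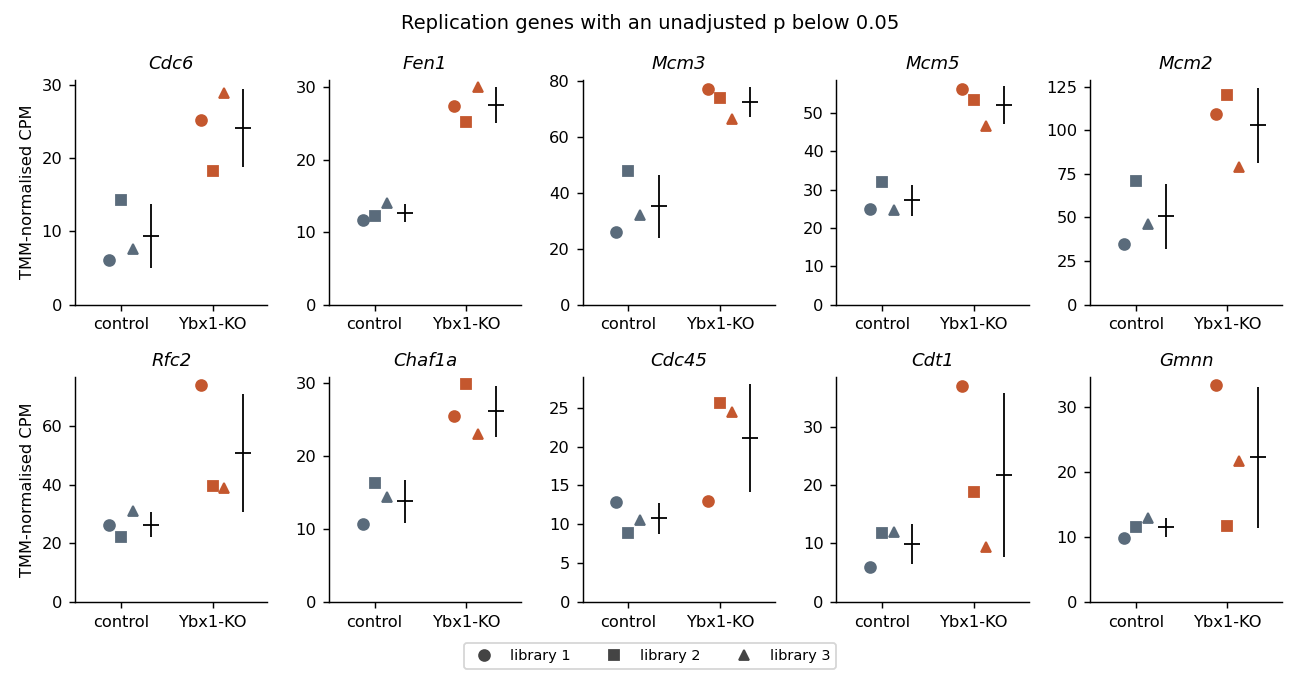
TMM-normalised CPM (y axis) of the 10 replication genes with an unadjusted p below 0.05 in the 3 control and 3 Ybx1-KO libraries, with the mean and SD of each group beside the points. The groups are apart in 8 genes, and in Cdt1 and Gmnn 1 Ybx1-KO library lies among the controls.

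Summed over all 49 genes, the TMM-scaled level per kb was 395, 419.6 and 448 CPM in the controls and 506, 545 and 487 CPM in Ybx1-KO. The groups did not overlap on that scale. Division by the TMM factor of 0.734 raises Ybx1-KO 2, and without the factors this library would lie among the controls. Of the 11 role groups, the TMM-scaled sums were apart for 6 (MCM2-7, origin recognition and licensing, RPA, polymerase alpha-primase, flap removal and ligation, chromatin assembly and histone mRNA), all with Ybx1-KO above, and they overlapped for 5. Without the TMM factors Ybx1-KO 2 would not lie above all controls for origin recognition and licensing, RPA, polymerase alpha-primase, or chromatin assembly and histone mRNA. For MCM2-7 and for flap removal and ligation it would. For RPA the sums were 33.01, 22.4 and 33.04 CPM in the controls and 33.9, 34.2 and 33.2 CPM in Ybx1-KO, so control 1, control 3 and all Ybx1-KO libraries were nearly level.

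**Figure D4:**
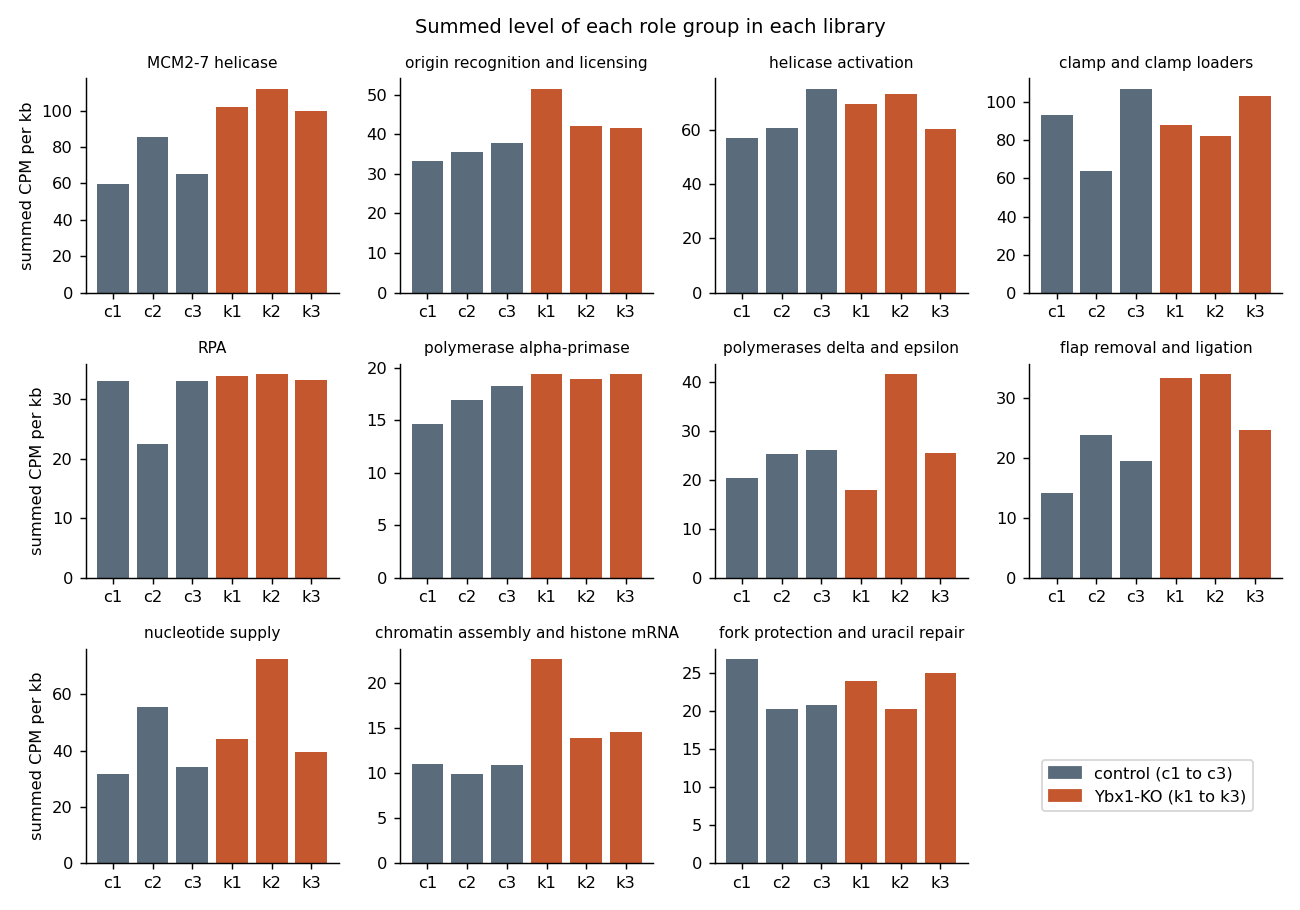
Summed TMM-normalised CPM per kb of exon (y axis, from 0) of the members of each of the 11 role groups in controls 1 to 3 (c1 to c3) and Ybx1-KO 1 to 3 (k1 to k3). For MCM2-7 the controls reach 85.4 and the Ybx1-KO libraries begin at 99.6, while the bars of the clamp and its loaders overlap.

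A second list of 42 replication genes outside the 49 (other initiation factors, loaders, nucleotide enzymes and checkpoint mediators) served for comparison, and 40 of them were tested. The log2 fold change was above 0 for 18 (45%, against 61.3% of all genes tested) and below 0 for 22. The median was -0.069, and 0 passed the adjusted p by edgeR. At an unadjusted p below 0.05, 4 were higher (6.96% of all genes tested) and 2 were lower (4.26% of all genes tested) in Ybx1-KO. Chtf18, a subunit of the cohesion clamp loader, had the highest log2 fold change at 1.63 ± 0.56 (adjusted p = 0.412), from 2.55, 3.87 and 5.70 CPM in the controls to 14.7, 13.9 and 8.81 CPM in Ybx1-KO. Orc3, a core subunit of the origin recognition complex, had the lowest at -0.99 ± 0.41 (adjusted p = 0.444), from 103, 102 and 78.1 to 29.4, 73.5 and 39.6 CPM, with every Ybx1-KO library below every control. Genes of G2 and mitosis, 32 in number, had a median of 0.26 with 21 above 0 (65.6%, near the 61.3% of all genes tested). Of these 32 genes, 5 were higher (6.96% of all genes tested) and 0 lower (4.26%) at an unadjusted p below 0.05. The highest was Cdc20, the activator of the anaphase-promoting complex, at 1.63 ± 0.46 (adjusted p = 0.328), from 16.9, 14.5 and 12.2 to 80.2, 29.5 and 25.7 CPM. Aurka, a mitotic kinase, followed at 1.35 ± 0.40 (adjusted p = 0.359), and Ncapg, a condensin subunit, was the lowest at -0.69 ± 0.45. No test of a difference between these lists and the 49 genes was made.

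Markers of the sorted cells and of other cells were measured beside these results. All 13 progenitor markers passed the filter, and Sox2 itself was at 17.2, 42.3 and 47.6 CPM in the controls and 33.04, 49.8 and 23.8 CPM in Ybx1-KO, with overlap. The log2 fold change was above 0 for 9 of the 13 (69.2%, against 61.3% of all genes tested, median 0.50). Nes (1.44), Hes5 (1.05) and Prom1 (0.66) had every Ybx1-KO library above the controls, and Slc1a3 (-1.78) had every one below. For Hes5 the paper reported the other direction, lower in Ybx1-KO, from its RNA-seq and from TaqMan assays of brain NPCs. Why the directions differ was not tested. All 14 neuron markers were also present, with summed levels per kb of 771, 1413 and 1234 CPM in the controls and 1495, 1157 and 576 CPM in Ybx1-KO, against 878, 614 and 909.5 and 951, 491 and 493 CPM for the progenitor markers. The neuron sum was lowest in Ybx1-KO 3. The log2 fold change was below 0 for 10 of the 14 and above 0 for 4 (28.6%, against 61.3% of all genes tested). The median was -0.24, and Snap25 (-1.27) and Syt1 (-0.75) had every Ybx1-KO library below the controls. Of 8 mesenchyme and meninges markers 7 were tested, and all 7 had a log2 fold change below 0 (median -2.002), with sums of 117, 19.1 and 31.4 and 15.7, 19.1 and 10.3 CPM. Erythroid markers summed to 1614, 1339 and 707 and 1745, 651 and 284 CPM. Endothelial markers, 6 in number, summed to at most 11.3 CPM per kb and 6 microglia markers to at most 25.6 CPM per kb in any library. Counts of Tie1, Aif1, C1qa, C1qb and Tyrobp were 0 in Ybx1-KO 1, as were those of C1qb in Ybx1-KO 2. Their part in the levels of the replication genes was not tested.

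**Figure D5:**
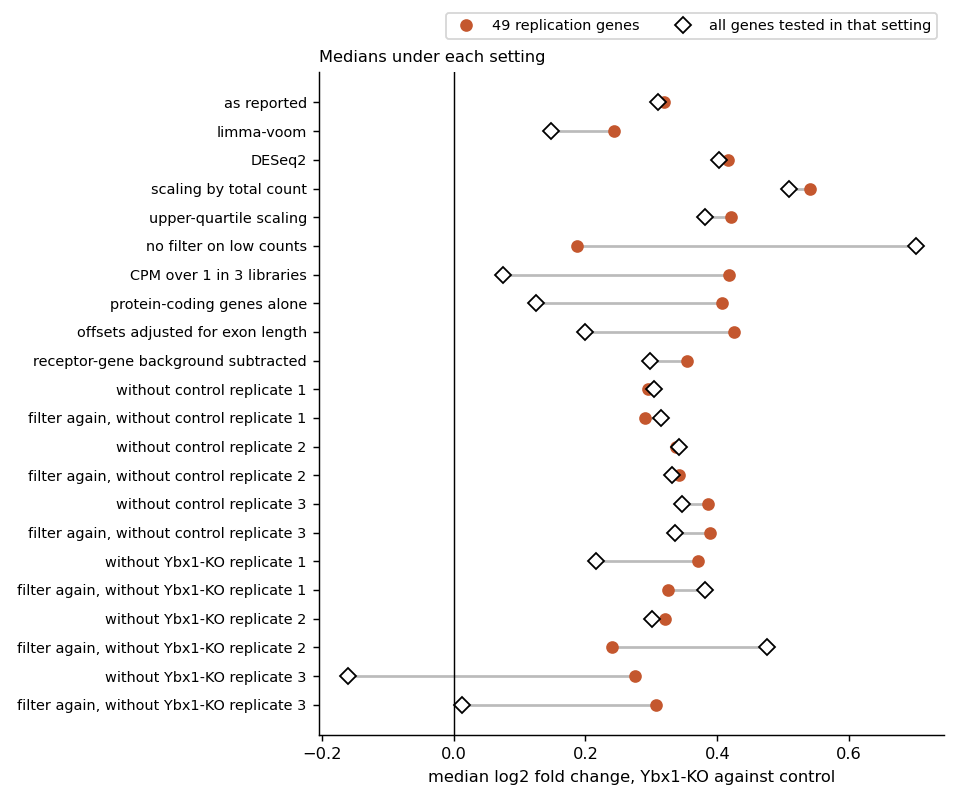
Median log2 fold change, Ybx1-KO against control (x axis), of the 49 replication genes (filled) and of all genes tested (open) under each setting of scaling, filter, tool or libraries. The replication genes stayed between 0.19 and 0.54, and all genes ranged from -0.16 without Ybx1-KO 3 to 0.70 without a filter on low counts.

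The replication genes are long, with a median of 4268 exon bases against 2691 over all tested genes, and their distance from the median of all genes moved with the setting. Among genes above 1 CPM in 3 libraries the medians were 0.42 for the replication genes and 0.08 for all genes, among protein-coding genes 0.41 and 0.13, and with offsets adjusted for exon length 0.43 and 0.20. Without any filter on low counts they were 0.19 and 0.70. The replication genes minus all genes also gave a negative value without control 1 (-0.0083), without control 2 (-0.0046) and, with the filter applied again, without control 1 (-0.024), Ybx1-KO 1 (-0.055) or Ybx1-KO 2 (-0.23). The median of the replication genes was above 0 in every setting drawn in the plot of medians.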

How the data were processed

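RNA-seq was made from total RNA of 3 control and 3 Ybx1-KO samples. The authors mapped paired reads, counted them on GENCODE genes with HTSeq 0.6.1p1 and deposited raw counts per gene symbol, 1 table per library, unnormalized and unpooled. The aligner, genome build and strand setting are not given in the sources used here. Between 7.22% and 24.7% of read pairs were on genes, and HTSeq's tallies of the rest were left out of library sizes. Symbols were matched to the exon lengths of GENCODE M21 (47624 directly, 357 by an older symbol, 3752 unmatched). Genes with a mean above 1 FPKM in either group were tested in R 4.3.3 with edgeR 4.0.16 (TMM, quasi-likelihood test, Benjamini-Hochberg adjustment over all 21329 genes, threshold 0.05 with a 1.5-fold change); this replaced the authors' voom as the main test and limma 3.58.1 and DESeq2 1.42.0 served as alternatives. The procedure was tested on simulated data with 200 changed genes and the spread estimated from these libraries. It recovered 41.5% of 4-fold changes with 31 false calls, and 69.5% of 8-fold changes with 26 false calls. With a small spread it recovered 99.5% and 100%. Smaller fold changes were not simulated. Other alternatives were scaling by total count or upper quartile, other filters, length-adjusted offsets, leaving out each library, and, chosen after seeing the data, subtraction of receptor-gene background. No pair of libraries agreed within sampling noise. Values in every library are given for Mcm2 to Mcm7, Pcna, Gmnn, Cdt1, Cdc6, Slbp, the most abundant gene of each role (by FPKM, with Orc6 and Gins2 added as the most abundant by TMM-scaled CPM per kb), genes without overlap and genes with an unadjusted p below 0.05, and for a few others chosen after their values were seen. The members and lists were chosen with earlier results of these data known.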

Additional observations from a re-analysis of the deposited data

How the results depend on the processing

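The median of the replication genes was 0.54 under total-count scaling and under each other alternative moved by less than its SD between libraries (0.13). Genes called over the whole table numbered 0 by edgeR, 214 with DESeq2 (118 higher, 96 lower), 193 without a filter on low counts, and 0 to 725 when single libraries were left out, with the filter kept or applied again. Replication genes called numbered 1 with DESeq2 and 0 in all other settings run. The log2 fold change of Ybx1 was -2.44 with DESeq2 (adjusted p = 0.0236) and -2.52 without a filter (adjusted p = 0.0214), both past the threshold. It was -3.49 to -1.95 without single libraries, and passed in 3 of those 12 fits, without Ybx1-KO 1 (adjusted p = 0.0405, and 8.6e-05 with the filter applied again) and without Ybx1-KO 2 with the filter applied again (0.0131). Signs turned for Tipin (0.018) and Gins4 (0.062) under total-count scaling, and for Rpa3 without a filter (-0.10) and with length-adjusted offsets (-0.27). Without single libraries, signs turned for Mcm7 (-0.014 to 0.37), Gins2 (-0.21 to 0.38), Gins4 (-0.30 to 0.029), Pcna (-0.14 to 0.37), Rpa3 (-0.26 to 0.28), Prim1 (-0.12 to 0.44), Pold2 (-0.64 to 0.45), Rrm2 (-0.0033 to 0.96), Slbp (-0.13 to 0.92) and Tipin (-0.44 to 0.038). Why these signs turned was not tested, beyond the library left out. The other 19 named genes kept their sign in every setting. Subtracting the receptor-gene background, an alternative chosen after seeing the data, gave a median of 0.35 with 38 of 49 above 0. No paired analysis was possible because the replicate numbers are in order of deposit and pair no samples. Depth limits the least abundant genes most, since 3 counts equal 0.632 CPM in Ybx1-KO 3. The sequencer of each library and the strand setting of the counting are not given in the sources used here, so neither could be examined as a cause of difference.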

Other observations

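Regulators of the G1/S transition, a list of 24 genes of E2F factors, pocket proteins, G1 cyclins, kinases and their inhibitors, stood at a median log2 fold change of 0.32. Of them 18 were above 0 (75%, against 61.3% of all genes tested) and 0 passed an adjusted p of 0.05 by edgeR. At an unadjusted p below 0.05, 5 were higher (6.96% of all genes tested) and 2 were lower (4.26% of all genes tested) in Ybx1-KO. E2f3, an activating E2F factor, was at 19.6, 31.9 and 18.2 CPM in the controls and 42.3, 53.7 and 38.8 CPM in Ybx1-KO, with no overlap (log2 fold change 0.95 ± 0.38 SE, adjusted p = 0.441). Ccne1, the cyclin that drives entry into S phase, had the highest log2 fold change at 1.32 ± 0.65 (adjusted p = 0.448), and control 2 lay above Ybx1-KO 1. Cdk6, a G1 kinase, had the lowest at -1.005 ± 0.41 (adjusted p = 0.444), with 71.1, 60.6 and 52.9 CPM in the controls and 17.4, 46.4 and 28.1 CPM in Ybx1-KO, every Ybx1-KO library below every control. Summed per kb, the list stood at 413, 548 and 395 CPM in the controls and 493, 615 and 307 CPM in Ybx1-KO, with overlap.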
